A study of Mus musculus with 18 samples.

Results

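The genes of 3 phase II enzyme superfamilies, the UDP-glucuronosyltransferases (UGT), the glutathione S-transferases (GST) and the sulfotransferases (SULT), were placed against lamina-associated domains (LADs), H3K9me3 regions and Foxa2 sites in mouse liver. Members were all protein-coding genes on chromosomes 1 to 19 of the GENCODE annotation of mm10 whose symbol starts with Ugt or Sult and a digit, or is Gst with a class letter (alpha, kappa, mu, omega, pi, theta or zeta among those found) and a number. This gave 65 of 20807 genes, of which 22 were UGT, 22 GST and 21 SULT genes. They fell into 21 clusters, in which neighbouring members lie less than 200 kb apart, and 10 of these clusters held a single gene.

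ChIP-Seq for lamin B1 and for H3K9me3 had been carried out on livers from male C57BL/6 mice aged 3 months (young) and 21 months (old), with 2 replicates for each antibody and age. Foxa2 was profiled in livers of male C57BL/6 mice aged 12 weeks, 3 Zmpste24 KO animals and 3 wild-type (WT) littermates. Zmpste24 is the metalloprotease that processes prelamin A, and the null allele is carried in all tissues. Replicates had been merged before regions were called, and each of the 6 lists used here gives positions only, with no score, so no spread between animals, no p-value and no read depth could be derived from them. A gene that is in a list for 1 condition and not in the other was called differently, and whether the underlying signal differed was not tested. The paper reports more pooled lamin B1 reads for young than for old livers, and more H3K9me3 reads for old than for young. The part of this difference in depth in the calls was not tested. The ages of the H3K9me3 lists are known from the names of the lists alone, and the absence of Zmpste24 cannot be checked from site positions. Chromatin came from whole liver, which holds other cells beside hepatocytes, so fewer cells with a region and a weaker signal per cell cannot be told apart. As a check of the tissue, 13 of 14 hepatocyte genes had a WT Foxa2 site within 50 kb of the gene body, against 32.0% of all genes. Among them were Alb, Apob and Hnf4a. A mutant site was found at 12 of 14, against 40.2% of all genes. Serpina1a had no site in either genotype, and Apoa1 had WT sites only.

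Phase II enzymes attach a polar group to drugs, pollutants, hormones, bilirubin and bile acids, which makes them easier to excrete. UGTs transfer glucuronic acid from UDP-glucuronic acid, GSTs transfer glutathione to electrophiles, and SULTs transfer sulfate from PAPS. Hepatocytes are a main site of these reactions, and many of the genes arose by tandem duplication and lie side by side. LADs are long chromatin segments held at the nuclear lamina, where most genes are weakly expressed, H3K9me3 is a mark of heterochromatin, and Foxa2 is a winged-helix pioneer factor of the liver.

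The share of phase II start sites in LADs was below that of protein-coding genes as a whole at both ages. In young livers, 8 of 65 start sites (12.3%) lay in a lamin B1 domain, beside 38.0% of all 20807 genes and 48.4% of the 409 other protein-coding genes within 500 kb of a member. In old livers the count was 23 of 65 (35.4%), beside 65.7% of all genes and 73.3% of the neighbours. The old domains were longer, with 930 Mb in all against 466 Mb in young livers. These are 37.8% and 18.9% of the length of chromosomes 1 to 19, so the domains held more of all start sites than of the length. Of the 14 hepatocyte genes, 3 had the start site in a young and 7 in an old domain. Whether genes in these domains were weakly expressed was not tested. The share of phase II start sites was below the length share in young livers and near it in old livers. Neither age gave a domain at 38 start sites (58.5%, against 29.8% of all genes and 23.0% of the neighbours). Only the old list held 19 start sites (29.2%, against 32.2% of all genes) and only the young list 4 (6.15%, against 4.49%), shares that lie near those of all genes. Both ages held 4 (6.15%, against 33.5%), namely Gstz1, Sult1a1, Sult6b1 and Sult6b2. When gene bodies were used, 9 members touched a young domain and 31 an old one (13.8% and 47.7%, against 40.9% and 68.3% of all genes).

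For H3K9me3 the share was near that of all genes in young livers and below it in old livers. The lists used here hold 2781 young and 2492 old regions on chromosomes 1 to 19. The study counted more H3K9me3 regions at each age than these lists hold, and a start site in a region outside the lists is counted here as not covered. A young H3K9me3 region covered 8 of 65 start sites (12.3%), close to the 13.6% of all genes and 13.0% of the neighbours. In old livers 4 of 65 did (6.15%), beside 25.7% and 27.6%. The start sites of Sult2a4 and Sult5a1 were covered at both ages (3.08%, against 7.45% of all genes), 6 start sites were in the young list alone (9.23%, against 6.19% of all genes), 2 in the old list alone (3.08%, against 18.2%), and 55 at neither age (84.6%, against 68.1%). In all, 31 start sites (47.7%) lay in neither a lamin B1 domain nor an H3K9me3 region at either age, against 23.2% of all genes and 16.9% of the neighbours. No member start lay in lamin B1 and H3K9me3 together in young livers, against 4.83% of all genes, and 3 did so in old livers (Sult2b1, Sult4a1 and Sult5a1; 4.62%, against 22.0%).

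For Foxa2 sites the share of phase II genes was above that of genes as a whole in both genotypes. A WT site lay in the gene body or within 50 kb of it at 30 of 65 genes (46.2%, against 32.0% of all genes and 30.8% of the neighbours). A mutant site did so at 51 (78.5%, against 40.2% and 35.9%). Sites of both genotypes were found at 28 genes (43.1%, against 20.2% of all genes) and mutant sites alone at 23 (35.4%, against 20.0%). WT sites alone were found at Gsta2 and Sult1a1 (3.08%, against 11.8%), and 12 genes had no site (18.5%, against 48.0%). Because the 9 Ugt1a genes share sites, the counts with these as 1 locus were 22 of 57 (38.6%) for WT and 43 of 57 (75.4%) for mutant sites. The number of genes with a site in the gene body itself was 17 in each genotype (26.2%, against 11.1% of all genes in WT and 14.1% in mutants), so the difference between 30 and 51 came from sites in the flanks. Of these 17 genes 9 were Ugt1a genes, and without them 8 of 56 (14.3%) had a site in the body in each genotype, near the shares of all genes. Windows of members overlap, and the counts rest on 28 WT and 44 mutant sites.

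**Figure D1:**
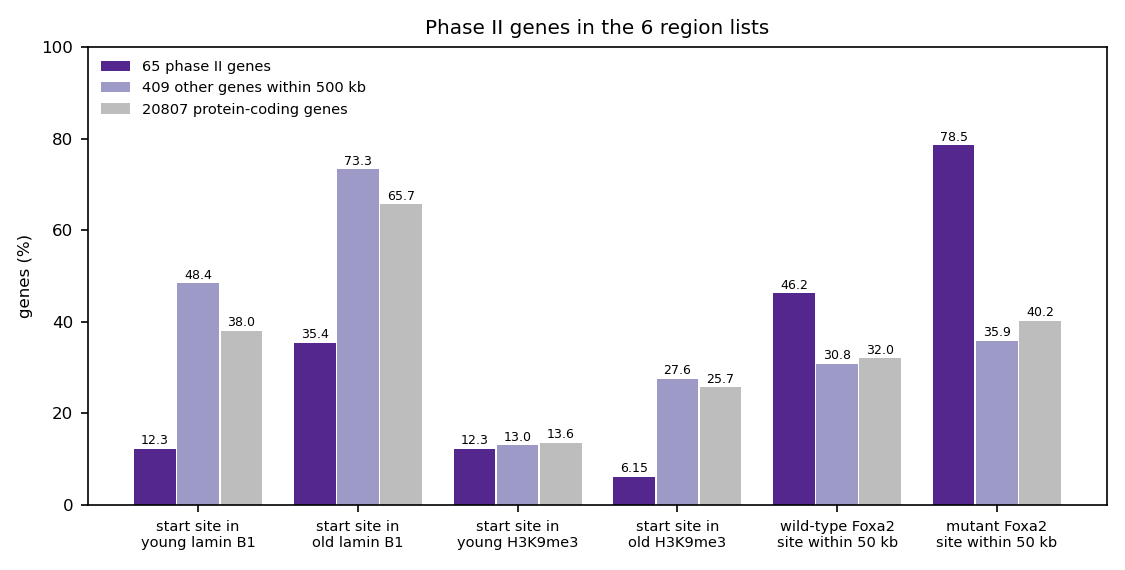
Share of genes (%, vertical axis) with the start site in each lamin B1 or H3K9me3 list, or with a Foxa2 site in the gene body or within 50 kb of it, for the 65 phase II genes, the 409 other genes within 500 kb of a member, and all 20807 protein-coding genes; each bar is 1 merged list and has no error bar. Phase II genes sit below the other sets in both lamin B1 lists and the old H3K9me3 list, near them for young H3K9me3, and above them for Foxa2.

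By superfamily, the share of start sites in old LADs was below that of all genes for UGT and SULT genes and near it for GST genes. Of 22 UGT start sites, 2 were in a young and 2 in an old lamin B1 domain (9.09% each, beside 38.0% and 65.7% of all genes), and 18 lay in lamin B1 at neither age (81.8%, beside 29.8%). Young H3K9me3 held 4 of them (18.2%, beside 13.6%) and old H3K9me3 0 (beside 25.7%). Of 22 GST start sites, 15 were in old lamin B1 domains (68.2%) and 1 in a young domain (4.55%), and none was in H3K9me3 at either age. Of 21 SULT start sites, 5 were in young and 6 in old lamin B1 domains (23.8% and 28.6%), and 4 of 21 in H3K9me3 at each age, above the share of all genes in young and below it in old livers. In lamin B1 in old livers only were 14 GST (63.6%), 2 UGT (9.09%) and 3 SULT start sites (14.3%), beside 32.2% of all genes. A WT Foxa2 site was near 17 UGT (77.3%), 8 GST (36.4%) and 5 SULT genes (23.8%), so that the SULT share was below the 32.0% of all genes. A mutant site was near 20 (90.9%), 16 (72.7%) and 15 (71.4%), each above the 40.2% of all genes. Members of a cluster tend to share a domain, so genes are not independent counts. Of the 21 clusters, 5 had a gene body in a young and 13 in an old lamin B1 domain, 6 in young and 5 in old H3K9me3, and 10 had a WT and 15 a mutant Foxa2 site. Over all genes, 40.9% and 68.3% of bodies touched young and old lamin B1, and 17.4% and 31.2% young and old H3K9me3. WT and mutant sites were near 32.0% and 40.2% of all genes. By cluster, the old lamin B1 count thus lay near the share of all genes, though a cluster counted when any of its genes was touched.

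**Figure D2:**
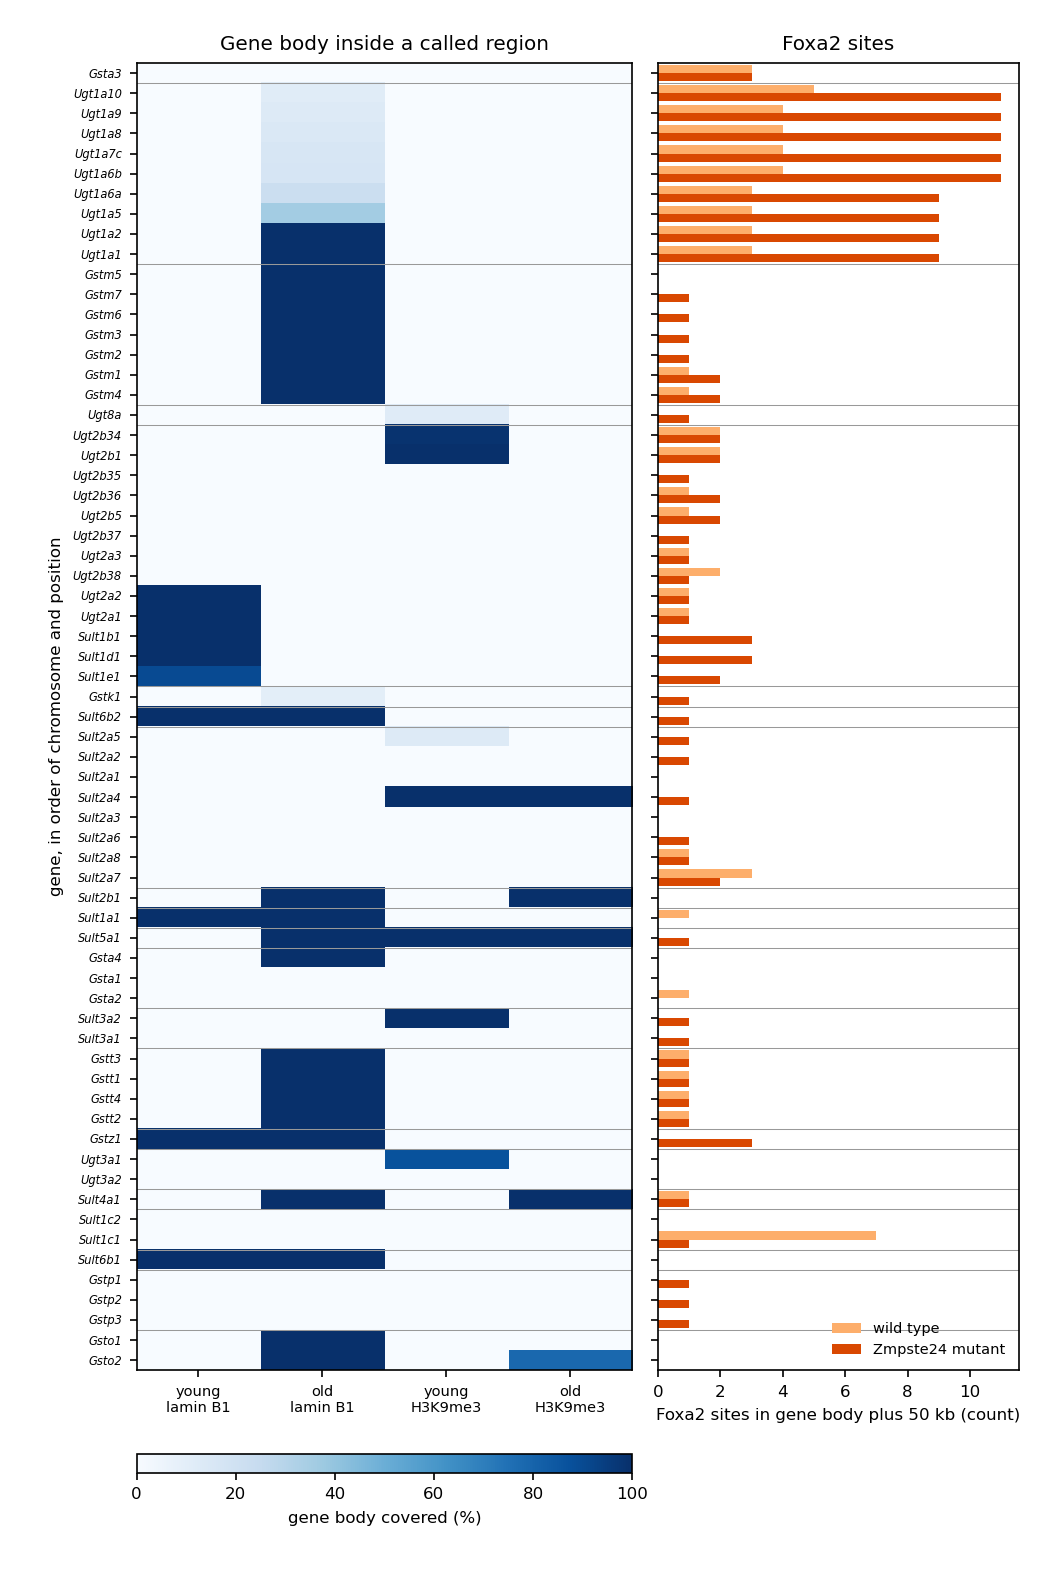
All 65 genes in order of chromosome and position, with the share of each gene body inside a called region (%, colour) in the left panel and the number of Foxa2 sites in the gene body plus 50 kb on either side (horizontal axis) in the right panel; grey lines separate the 21 clusters. Old lamin B1 covers the Gstm, Gstt and Gsto clusters, young lamin B1 covers the end of the Ugt2 and Sult1 cluster, the most mutant Foxa2 sites are at the Ugt1a genes, with up to 11, and the most WT sites at Sult1c1, with 7.

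The Ugt1a locus on chromosome 1 (chr1:88055388-88220002) encodes the enzymes that glucuronidate bilirubin, phenols and many drugs. Its 9 genes each have their own first exon and share 4 stretches of exon at the 3′ end, 1311 bases in all, so that the gene bodies overlap at that end. No young lamin B1 domain was called within 345 kb of the locus. In old livers a domain of 4320 kb began at 88200001, in front of the start of Ugt1a2 at 88200601. Only Ugt1a2 and Ugt1a1, the bilirubin enzyme, therefore had the start site and the whole body in the domain. For the 7 genes further upstream, the share of the body in the domain ran from 11.6% in Ugt1a10 to 35.9% in Ugt1a5, at its 3′ end. H3K9me3 was called at neither age, and the nearest regions were 500 kb away in young and 230 kb in old livers.

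Foxa2 sites were dense here, and those at the 3′ end formed a wide block. Starting in front of the Ugt1a1 start site, 7 WT sites spanned chr1:88211375-88310680 and covered 92.1 of 99.3 kb, and 15 mutant sites spanned chr1:88211711-88310934 and covered 72.1 of 99.2 kb. The block ran on through Mroh2a and Hjurp into Trpm8, inside the old lamin B1 domain. The widest of its WT sites, of 33618 bp, was the widest on chromosomes 1 to 19, where the median width was 940 bp for WT and 883 bp for mutant sites. Of the 16 WT sites wider than 5 kb on these chromosomes, 7 were in the block, as were 6 of the 8 mutant ones. The input and the signal under this block were not analysed here. Without sites wider than 5 kb the genes with a WT site fell to 26 (40.0%, against 31.9% of all genes), while those with a mutant site stayed at 51. Upstream, sites of ordinary width were called at 3.75 kb (WT) and 3.60 kb (mutant) behind the start of Ugt1a9, an overlapping pair in an intron, with a further mutant site at 2.55 kb. Ugt1a5 had a mutant site alone, 2.00 kb behind its start.

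The stretch below is from the pair at Ugt1a9 (GRCm38, chr1:88074431-88074551, plus strand). In this and all later sequences, read 5′ to 3′ on the strand of the gene, capitals mark any of 4 forkhead words or their reverse complements. These are the core TGTTTAC, a relaxed form of it that reads TATTTAC, another relaxed form that reads TGTTTGC, and the form relaxed in both ways, which reads TATTTGC. Words were counted on both strands, no position counts for more than 1 of them, and a stretch of 121 bases with capitals is centred on such a word by choice.
Ugt1a9, both genotypes: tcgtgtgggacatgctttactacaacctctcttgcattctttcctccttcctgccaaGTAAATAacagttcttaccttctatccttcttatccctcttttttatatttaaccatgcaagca

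**Figure D3:**
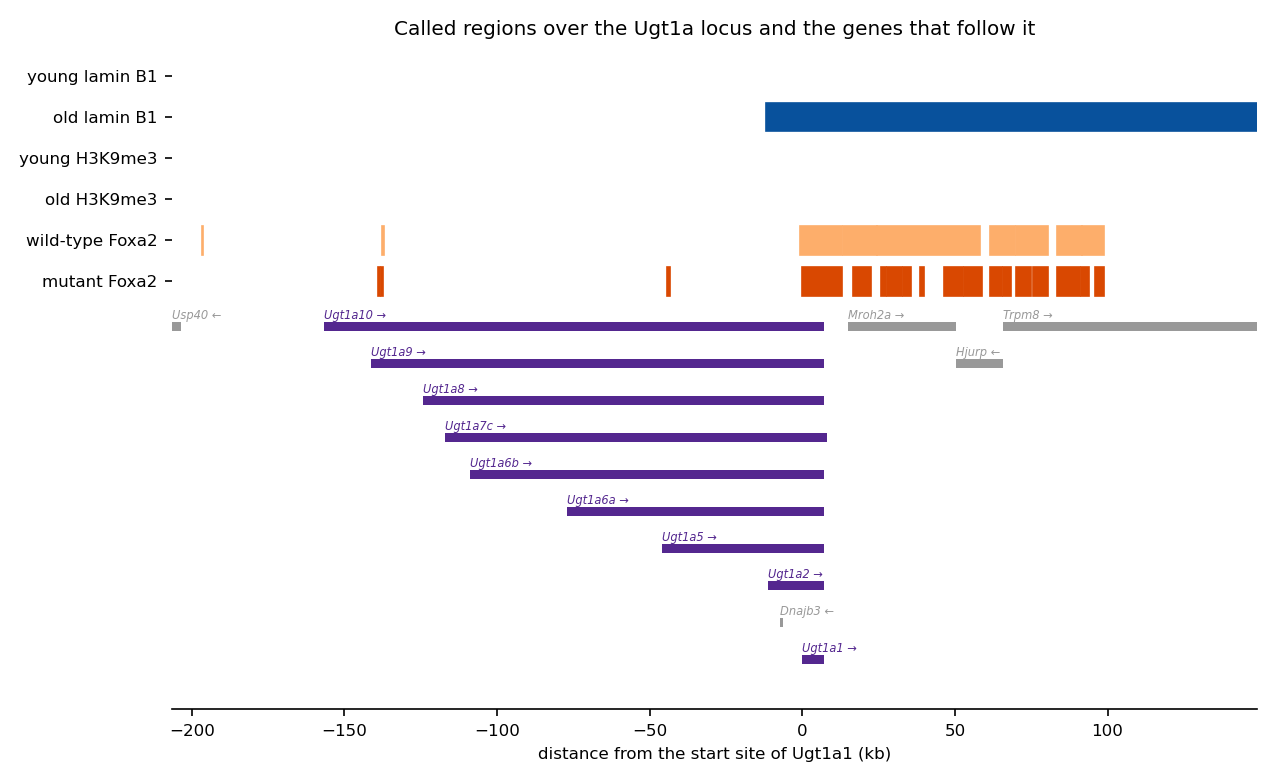
Map of the Ugt1a locus and the genes that follow it, with distance from the Ugt1a1 start site in kb on the horizontal axis, the 6 lists as rows of boxes, members in purple, other protein-coding genes in grey, and arrows for the direction of transcription; outlines close the narrowest gaps between boxes. The old lamin B1 domain and the wide block of Foxa2 sites of both genotypes cover Ugt1a1 and the genes behind it, and the starts of the 7 upstream Ugt1a genes lie outside both.

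The largest cluster, on chromosome 5 (chr5:86889767-87591594), holds 10 Ugt2 and 3 Sult1 genes in 701.8 kb. UGT2 enzymes glucuronidate steroids, bile acids and drugs, and Sult1b1, Sult1d1 and Sult1e1 sulfate thyroid hormone, catecholamines and estrogen. The cluster was AT-rich (37.3% GC), and the lists split it into 3 segments. A young H3K9me3 region of 100 kb (chr5:86890001-86990000) covered Ugt2b34 and Ugt2b1, and no old region was called within 1480 kb. A young lamin B1 domain of 140 kb (chr5:87450001-87590000) covered the whole of Ugt2a2, Ugt2a1, which encode enzymes of the olfactory epithelium, Sult1b1 and Sult1d1, and 89.8% of Sult1e1, whose start lay just outside. Of the 5 protein-coding start sites in that domain 4 belonged to members, and the nearest old domain was 968 kb from the cluster. The 6 genes between, Ugt2b35, Ugt2b36, Ugt2b5, Ugt2b37, Ugt2a3 and Ugt2b38, were in none of the 4 lists.

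**Figure D4:**
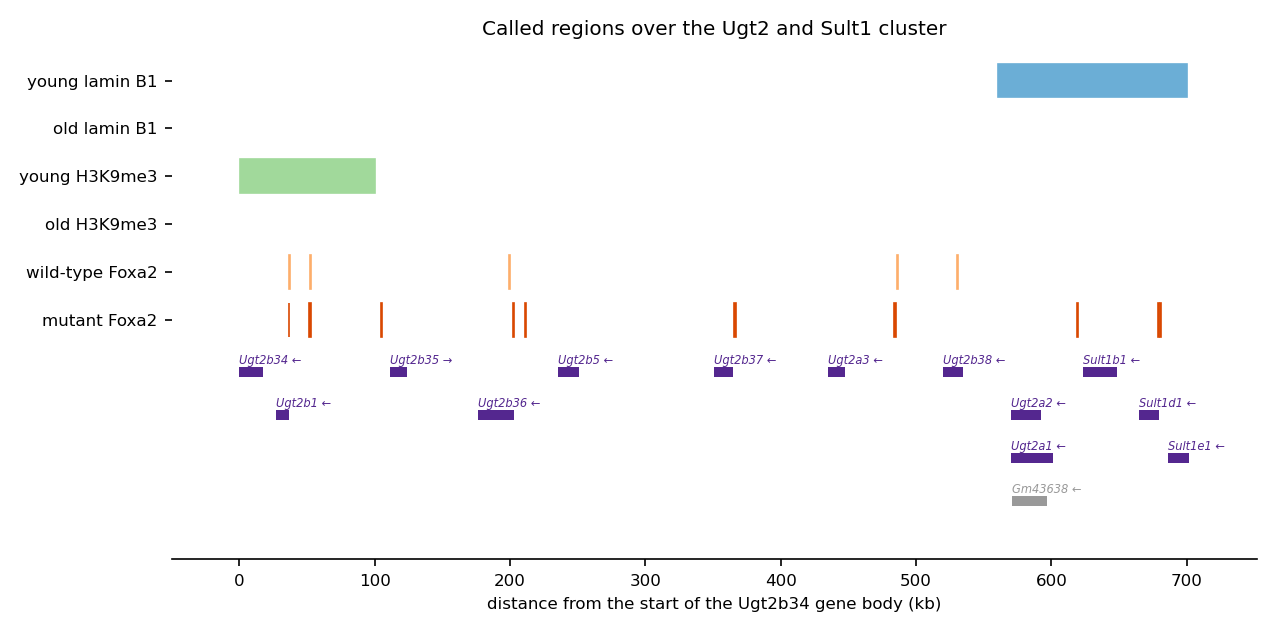
Map of the Ugt2 and Sult1 cluster, with distance from the low-coordinate end of the Ugt2b34 gene body in kb on the horizontal axis, the 6 lists as rows, members in purple, 1 other protein-coding gene in grey, and arrows for the direction of transcription; boxes of Foxa2 sites have a minimum drawn width. Young H3K9me3 covers the left end and young lamin B1 the right end, both old rows are empty, and the 5 WT and 10 mutant Foxa2 sites are spread over the cluster.

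In this cluster 5 WT and 10 mutant Foxa2 sites were called, and only 2 pairs overlapped, both at Ugt2b1. The site at the Ugt2b1 start had its midpoint 10 bp (WT) and 8 bp (mutant) upstream of the start, and the other pair lay 15.8 and 15.3 kb upstream. The young H3K9me3 region covered both pairs. Ugt2b1 and Ugt1a1 were the members with a WT site in the promoter, taken as 250 bases before to 50 after the start (2 of 65, 3.08%, against 2.40% of all genes). With mutant sites these were joined by Ugt2b36 and Sult1d1 (4 of 65, 6.15%, against 1.59%). At Ugt1a1 the call was the edge of the wide block, from a site of 13478 bp in WT and 13292 bp in mutants. Below are the 200 bases in front of the Ugt2b1 start (chr5:86926531-86926730, minus strand), shown because both genotypes had a site here.
Ugt2b1, both genotypes: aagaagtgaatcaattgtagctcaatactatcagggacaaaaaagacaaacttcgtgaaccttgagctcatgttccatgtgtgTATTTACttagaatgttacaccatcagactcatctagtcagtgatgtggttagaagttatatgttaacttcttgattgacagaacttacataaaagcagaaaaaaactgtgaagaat

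The stretch held 1 forkhead word. Among all genes, 8.47% had any of the 4 words in the 200 bases in front of the start, and 2.05% had the core TGTTTAC. Among phase II genes these were 19 of 65 (29.2%) and 4 of 65 (6.15%), the core being found at Ugt1a2, Ugt2b37, Ugt2b38 and Ugt3a1. Sult2a1 to Sult2a6 were all among the 19, and such tandem copies were counted as separate genes. The median GC content of the 200 bases was 44.0% for phase II genes and 55.5% for all genes. The parts of base composition and of tandem duplication in these shares were not tested.

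The other sites of the cluster were called in 1 genotype. Sult1d1 had a mutant site across its start (chr5:87568558-87569151) and another 1.26 kb upstream, and its nearest WT site was 148.6 kb away. Both lay in the lamin B1 domain that was called in young livers only, as did a mutant site 18.3 kb upstream of Ugt2a1. Ugt2b37 had a mutant site 1.12 kb upstream, and its nearest WT site was 121 kb away. Ugt2b36 had a mutant site at its start, with the midpoint 281 bp downstream, a further mutant site 8.73 kb upstream and a WT site 2.99 kb downstream, none of which overlapped. WT sites without a mutant counterpart were also called 4.06 kb downstream of the Ugt2b38 start and 38.9 kb upstream of Ugt2a3, where a mutant site lay at 37.2 kb. Ugt2b35 had 1 mutant site, 6.18 kb upstream. Ugt2b34 and Ugt2b5 counted the sites of their neighbours, as did Ugt2a2, Sult1b1 and Sult1e1.

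The 124 bases of the mutant site in front of the Sult1d1 start (chr5:87569028-87569151, minus strand) held none of the 4 words, and the 1 core in that site was on the transcribed side. The stretch at Ugt2b37 (chr5:87256038-87256158, minus strand) was centred on a core.
Sult1d1, mutant only: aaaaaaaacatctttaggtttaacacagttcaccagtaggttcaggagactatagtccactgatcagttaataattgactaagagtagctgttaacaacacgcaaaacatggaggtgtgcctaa
Ugt2b37, mutant only: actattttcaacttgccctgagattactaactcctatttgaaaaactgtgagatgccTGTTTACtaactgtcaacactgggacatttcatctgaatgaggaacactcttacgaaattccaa

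The stretch at Ugt2b37 resembled that of a WT-only site 39.8 kb upstream of Ugt1a10 on chromosome 1 (chr1:88015492-88015612, plus strand), a likeness seen after the sequences had been read. Over 83 aligned positions without gaps, 65 were identical (78.3%), and no other pair of the stretches reached 70%. The Ugt1a10 stretch held none of the 4 words, and the protein-coding start nearest to its site was that of Usp40.
Ugt1a10, WT only: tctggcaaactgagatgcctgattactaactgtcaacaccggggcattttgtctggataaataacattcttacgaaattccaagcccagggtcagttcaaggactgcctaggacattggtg

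Among the other UGT genes, Ugt8a, which makes the myelin lipid galactosylceramide, had its start and 11.8% of its body in a young H3K9me3 region of 1040 kb, and a mutant site 39.3 kb upstream in the same region. Ugt3a1, whose family uses sugars other than glucuronic acid, had 86.8% of its body and its start in a young H3K9me3 region (chr15:9200001-9310000), and its neighbour Ugt3a2 was in none of the 4 lists. The nearest Foxa2 sites to the Ugt3a1 start were 160.6 kb (WT) and 139.9 kb (mutant) away. Within the Ugt3a pair 18.2% of 40-base words occurred more than once, and only uniquely aligned reads had been used for calling. The part of this recurrence in the calls was not tested.

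Among the GST genes, the clusters of the mu and theta classes were each covered whole by an old lamin B1 domain. The 7 Gstm genes (chr3:107895821-108044894), which conjugate epoxides and other electrophiles, lay in an old domain of 1770 kb with 47 protein-coding start sites, and the nearest young domain was 215 kb away. The 4 Gstt genes (chr10:75774115-75837424) lay in an old domain of 1150 kb with 29 start sites, 32.6 kb from the nearest young domain. Gsto1 and Gsto2, of the omega class, which reduces dehydroascorbate, were in an old domain of 320 kb, and Gsto2 also had 78.5% of its body but not its start in an old H3K9me3 region. In contrast, Gstz1, an enzyme of tyrosine breakdown, was in lamin B1 at both ages, the young domain being 550 kb and the old one 3580 kb long. The 3 Gstp genes on chromosome 19 and Gsta3 on chromosome 1 were in none of the 4 lists.

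The 3 Gsta genes on chromosome 9 were divided by the end of an old domain at 78230000. Gsta4, which conjugates the lipid peroxidation product 4-hydroxynonenal, lay inside the domain, and Gsta1, which starts at 78230656, and Gsta2 lay outside. In this cluster 36.9% of 40-base words recurred, the highest share of the 21 clusters, and its part in the calls was not tested. Gstk1 was touched by an old domain over 9.9% of its body, behind its start.

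At the GST genes, Foxa2 sites called in both genotypes were found at Gsta3, Gstt1 and Gstm4. Gsta3, the alpha-class enzyme that detoxifies aflatoxin epoxide in mice, had 3 sites in each genotype, and all 3 pairs overlapped. These lay 11.5, 8.66 and 6.04 kb from the start for WT and 11.6, 8.56 and 5.95 kb for mutant sites, the first 2 upstream and the last in an intron. The first pair was nearest to the start of Tmem14a. Gstt1 had an intronic pair 3.38 kb (WT) and 3.58 kb (mutant) behind its start, and this pair was the 1 site within 50 kb of all 4 Gstt genes. A pair upstream of Gstm4, at 22.6 and 22.9 kb, also counted for Gstm1, and its nearest protein-coding start was that of Ampd2. The intronic stretches of Gsta3 (chr1:21246776-21246896, plus strand) and Gstt1 (chr10:75795148-75795268, minus strand) are shown as sites shared by the genotypes with and without a forkhead word.
Gsta3, both genotypes: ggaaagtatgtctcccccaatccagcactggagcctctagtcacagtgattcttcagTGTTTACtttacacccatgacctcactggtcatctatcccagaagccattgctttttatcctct
Gstt1, both genotypes: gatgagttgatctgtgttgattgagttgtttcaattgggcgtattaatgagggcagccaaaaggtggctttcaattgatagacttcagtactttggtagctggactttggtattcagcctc

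Mutant sites without a WT counterpart were called at Gstm3, 3.23 kb upstream, and near Gstz1, with 1 site 33.2 kb upstream and 2 sites 33.7 and 39.0 kb downstream of the start. The site upstream of Gstz1 was nearest to the start of Ngb and the 2 downstream sites to that of Samd15. The Gstm3 site gave Gstm2, Gstm6 and Gstm7 their only site, and Gstm5 had none. It lay in the old lamin B1 domain, and the 3 sites near Gstz1 lay in lamin B1 at both ages. Further mutant sites were 43.5 kb from Gstk1 and 25.1 kb from Gstp1, the latter being the only site within 50 kb of the 3 Gstp genes. The nearest protein-coding starts of these sites were those of Clcn1 and Ndufv1. Gsta2 had a WT site alone, in an intron 3.56 kb behind its start, and its nearest mutant site was 340 kb away. No site was called within 50 kb of Gsta1, Gsta4, Gsto1 or Gsto2. The stretch at Gstm3 (chr3:107972215-107972335, minus strand) is shown as the mutant-only site closest to a GST start.
Gstm3, mutant only: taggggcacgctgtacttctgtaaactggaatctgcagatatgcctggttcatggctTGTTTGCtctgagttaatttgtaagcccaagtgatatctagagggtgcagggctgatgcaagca

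The sulfotransferases were the superfamily with start sites in all 4 lists. Their largest cluster holds the 8 Sult2a genes (chr7:13623967-14494230), which sulfate bile acids and hydroxysteroids. The nearest lamin B1 domain was 574 kb away at the young and 544 kb at the old age. Sult2a4 was the exception for H3K9me3, being covered whole in young (chr7:13900001-14010000) and old livers (chr7:13870001-14040000), and the start of Sult2a5 was in a young region. In this cluster 21.2% of 40-base words recurred, and its part in the calls, which used uniquely aligned reads, was not tested.

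Within 50 kb of a Sult2a gene, 3 WT and 5 mutant sites were called, and 2 pairs overlapped. At Sult2a8 the pair lay in an intron, 8.03 kb (WT) and 7.98 kb (mutant) behind the start. The other pair lay 31.1 and 31.6 kb upstream of Sult2a7. Sult2a4 had a mutant site 44.9 kb into its body, inside the H3K9me3 regions of both ages, and the nearest WT site was 319 kb from its start. A further WT site lay 28.8 kb upstream of Sult2a7. Mutant sites were also called 45.9 kb upstream of Sult2a2, within 50 kb of Sult2a5 too, and beyond the end of Sult2a6, whereas Sult2a1 and Sult2a3 had none. The stretch of the Sult2a8 pair is given with its word in capitals (chr7:14438694-14438814, minus strand).
Sult2a8, both genotypes: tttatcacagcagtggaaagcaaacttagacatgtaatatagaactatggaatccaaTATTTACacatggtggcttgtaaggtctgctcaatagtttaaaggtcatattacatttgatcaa

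Sult1a1, the phenol sulfotransferase, was in lamin B1 at both ages, the young domain being 700 kb and the old one 2440 kb long, and had a WT Foxa2 site 1.29 kb upstream inside both domains. Its nearest mutant site was 350.7 kb away. Sult6b1 and Sult6b2, whose substrates are little known, were also in lamin B1 at both ages, and Sult6b2 had a mutant site 26.3 kb upstream, while Sult6b1 had no site. Sult2b1, which sulfates cholesterol, and Sult4a1, an orphan enzyme of the brain, were in lamin B1 and in H3K9me3 in old livers only. For Sult2b1 the old lamin B1 domain was 2970 kb long with 134 protein-coding start sites, and for Sult4a1 it was 2450 kb with 36. The nearest young lamin B1 domain was 15.3 kb from Sult2b1 and 466 kb from Sult4a1. Sult2b1 had no Foxa2 site, and Sult4a1 had a WT site 33.8 kb and a mutant site 44.0 kb upstream. The nearest protein-coding start was that of Pnpla5 for this WT site and that of Pnpla3 for the mutant site. Sult5a1 was in lamin B1 in old livers only and in H3K9me3 at both ages. The nearest young lamin B1 domain was only 0.192 kb from its gene body, in a list built on windows of 10 kb. Sult5a1 had 1 mutant Foxa2 site, 23.1 kb upstream and inside the old lamin B1 domain and both H3K9me3 regions. The protein-coding start nearest to that site was that of Dpep1. Of the pair Sult3a2 and Sult3a1, Sult3a2 was in a young H3K9me3 region (chr10:33680001-33820000) that also held the only Foxa2 site of the pair, called in mutants 24.9 kb upstream of Sult3a2.

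Of the 65 genes, Sult1c1 had the largest excess of WT over mutant Foxa2 sites. There were 7 WT sites, 5 upstream between 18.5 and 34.1 kb, 1 in an intron and 1 beyond its 3′ end, and 1 mutant site in an intron, which overlapped none of them. The nearest lamin B1 domain was 140 kb away at both ages, and no H3K9me3 region was within 470 kb. Sult1c2, its neighbour, had no Foxa2 site within 50 kb. The stretch at Sult1a1 (chr7:126677663-126677783, minus strand) is shown as the WT-only site closest to a member start.
Sult1a1, WT only: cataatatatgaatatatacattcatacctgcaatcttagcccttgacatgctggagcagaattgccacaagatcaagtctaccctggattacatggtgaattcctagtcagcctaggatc

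Over all members, the median site was 766 bp wide in WT and 1047 bp wide in mutants, and site density was above that around other genes. Near members there were 5.78 WT and 9.08 mutant sites per Mb, against 2.59 and 3.79 within 50 kb of any protein-coding gene. Without the wide block at Ugt1a the densities were 5.16 and 7.43. The median widths were then 662 bp in WT and 854 bp in mutants, against 940 and 883 bp over all sites on chromosomes 1 to 19. The median distance from a start site to the nearest WT site was 77.8 kb for members and 137 kb for all genes, and to the nearest mutant site 31.1 and 95.7 kb. For the 56 members outside Ugt1a the medians were 114 and 37.5 kb. The gene bodies were of similar length, with medians of 19.3 kb for members and 17.6 kb for all genes.

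The share of sites that overlapped between genotypes was higher near members than among all sites. Of the 28 WT sites 13 overlapped a mutant site (46.4%, against 27.3% of all 4912 WT sites on chromosomes 1 to 19), and of the 44 mutant sites 18 overlapped a WT site (40.9%, against 16.8% of 8051). Without the wide block the shares were 40.0% and 27.8%. The core TGTTTAC was in 3 WT sites (10.7%, against 27.8% of all WT sites) and 11 mutant sites (25.0%, against 23.4%). Any of the 4 words was in 14 of 28 WT sites (against 62.4% of all) and 28 of 44 mutant sites (63.6%, against 58.6%). Site widths differ between these sets, and their part in the shares was not tested.

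The share of sites in LADs was lower near members than among all sites. These sites were taken for lying near members, whose start sites were less often in LADs, so this is not a separate result about Foxa2. Of the 28 WT sites, 1 was in a young (3.57%, against 35.9% of all WT sites) and 7 in an old lamin B1 domain (25.0%, against 64.3%). Of the 44 mutant sites, 7 were in a young (15.9%, against 28.5%) and 19 in an old domain (43.2%, against 50.1%). Without the wide block at Ugt1a, the shares in old domains were 16.0% for WT and 30.6% for mutant sites. The 7 mutant sites in young domains were those near Ugt2a1, Sult1d1, Sult6b2 and Gstz1. H3K9me3 of young livers held 2 WT (7.14%, against 19.6%) and 6 mutant sites (13.6%, against 22.0%). The Foxa2 mice were aged 12 weeks, near the 3 months of the young lamin B1 list and not the 21 months of the old one, and no lamin B1 list of Zmpste24 mutants was used here.

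Other genes of xenobiotic metabolism and conjugation are given for comparison, with the shares of all genes as above. Of 21 further enzymes, which include conjugating enzymes such as the methyltransferases Tpmt and Nnmt and the microsomal Mgst1 but also the epoxide hydrolases Ephx1 and Ephx2 and the reductase Nqo1, the start site of 6 (28.6%) was in a young and of 13 (61.9%) in an old lamin B1 domain. A WT Foxa2 site was near 8 (38.1%) and a mutant site near 10 (47.6%). Of 11 genes that supply cosubstrates, 4 (36.4%) were in a young and 9 (81.8%) in an old domain, the latter including Ugdh, which makes UDP-glucuronic acid, Papss1 and Papss2, which make PAPS, and Gclc and Gclm, which start glutathione synthesis. A WT site was near 4 of these (36.4%) and a mutant site near 7 (63.6%). Of the 4 genes of conjugate turnover, Gusb, Ggt1, Ggt5 and Dpep1, 1 was in a young and all 4 in an old domain, with a WT site near 3 and a mutant site near all 4. The shares of these lists in old domains, 61.9% and 81.8%, stand beside 35.4% for the UGT, GST and SULT genes and 65.7% for all genes.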

How the data were processed

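The 6 deposited lists hold genome positions of called regions (mm10), with no signal or score. Per the paper's methods, the authors used BWA for alignment, discarded duplicates and reads without a unique position, and pooled replicates before calling. Epic gave the lamin B1 domains in windows of 10 kb, and PeakSeq gave the Foxa2 sites against input after mutant reads had been downsampled to the WT number. The submitters' processing notes also name SICER, without saying for which list. The caller of the H3K9me3 regions is not otherwise given in the sources used here, and H3K9me2 was not analysed here.

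Gene bodies and start sites (the 5′ end of the gene) came from GENCODE M21, and sequence was read from GRCm38.p6, so coordinates are 1-based on 1 build. An overlap of at least 1 bp counted. Members, gene lists and words were chosen with earlier results of these data known, and the 4 forkhead words after the sites had been seen. With 1 merged list per condition, no test was possible, and counts stand beside shares over all protein-coding genes and over neighbours. Genes were described in full where they had a Foxa2 site near or in the body, held both marks at a single age, or lay in a cluster of 3 or more. Sequences came from sites in a gene body or within 5 kb of a start, except that at Ugt1a10. Of the 5 conjugate turnover genes listed, 4 lay on chromosomes 1 to 19. Overlap and word code was tested on simulated data. Python 3.11.15, numpy 2.4.6, pysam 0.24.0 and matplotlib 3.10.9 were used.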

Additional observations from a re-analysis of the deposited data

How the results depend on the processing

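Over 23 results, 81 of 96 alternative values stayed within 1.5 times the reported count and 15 did not. With the gene body alone, 17 members had a WT and 17 a mutant Foxa2 site, 15 had both and 2 mutant sites only, instead of 30, 51, 28 and 23. With a flank of 10 kb the 4 counts were 18, 23, 15 and 8. When a site counted only for the gene with the nearest start, they were 13, 22, 10 and 12. With the Ugt1a genes counted singly, the share of members stayed above that of all genes at each setting. It was then nearest for WT sites at the nearest start, with 20.0% against 17.1%. Without the Ugt1a genes, the share with a site in the body was near that of all genes in each genotype. The WT share at a flank of 10 kb was then no longer above that of all genes. With whole bodies covered, 4 and not 8 members were in young H3K9me3. Any of the 4 forkhead words was in 14 WT and 28 mutant sites instead of 3 and 11 for the core, which follows from searching more words. Leaving out Foxa2 sites wider than 5 kb and searching the 4 words were added after seeing the data. Lamin B1 and H3K9me3 counts at start sites stayed within 1.5 times under all alternatives run: other transcript starts, a distance of 10 kb, regions of at least 50 kb, and Ugt1a as 1 locus. No paired analysis was possible because the lists are calls on merged replicates and carry no replicate numbers, and for the same reason no replicate could be left out.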
